A study of Mus musculus with 8 samples.

Results

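Breakdown of the branched-chain amino acids leucine, isoleucine and valine was followed in brown adipose tissue (BAT) through 10 genes: *Bcat2*, *Bckdha*, *Bckdhb*, *Dbt*, *Dld*, *Bckdk*, *Ivd*, *Mccc1*, *Mccc2* and *Hibch*. They were taken by gene symbol as enzymes and a kinase of this pathway, and are 10 of the 33641 genes with deposited estimated counts. All 10 passed the filter on low counts and are among the 14851 genes tested.

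Interscapular BAT was taken from 8 C57BL/6 mice aged 28 weeks, and poly(A) RNA-seq libraries were made from it. Libraries A7, A8 and A12 carry the label wild-type (n = 3), and the knockout label, written here as *Adipo-HuR-/-*, is on the remaining 5 (A24, A25, A26, A29, A31). HuR, encoded by *Elavl1*, is an RNA-binding protein that attaches to AU-rich stretches of mRNA. In *Adipo-HuR-/-* mice a floxed HuR allele is removed by Cre under the adiponectin promoter. By this design the deletion is meant for adipocytes, and the vessels, immune cells and nerves of the depot are meant to keep HuR. HuR was not measured by cell type here. Control animals of the study were littermates that carried Cre with no floxed allele, or floxed alleles with no Cre, and the labels do not say which of these each wild-type library came from. Sex and diet of the sequenced animals are not given in the labels. The comparison asks how gene expression in BAT differs where adipocytes lack HuR.

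The targeted gene did not separate the groups. *Elavl1* was at 50.6, 48.0 and 49.2 CPM (counts scaled to a common, TMM-normalised library size) in A7, A8 and A12. It was at 61.9, 47.3, 43.4, 61.3 and 61.2 CPM in A24, A25, A26, A29 and A31. The log2 fold change was 0.16 (SE 0.162, edgeR quasi-likelihood adjusted p = 0.667). This gene total therefore does not check the labels, and the group sizes the study states are the reverse of those in the labels. Groups are named by their labels throughout, and a positive log2 fold change means a higher level in the libraries labelled *Adipo-HuR-/-*.

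Sequencing depth was uneven. The libraries labelled wild-type held 60622522 (A7), 51751002 (A8) and 50673814 (A12) estimated counts. Among those labelled *Adipo-HuR-/-*, A26 held 67498055, A31 held 58727739 and A29 held 50893173, but A24 only 18264754 and A25 only 17558090. The shallowest libraries, A24 and A25, thus carry the same label. Even there, 3 counts of a gene correspond to 0.169 and 0.142 CPM, far under the level of each of the 10 genes.

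Brown adipocyte markers were present in each library. All 12 markers, among them *Ucp1*, *Cidea* and *Adipoq*, had counts in each of the 8 libraries, and their summed level lay between 16081 CPM in A25 and 34366 CPM in A8. By edgeR's quasi-likelihood test 0 of the 12 were past an adjusted p of 0.05 and a fold change of 1.5, and 0 had an unadjusted p under 0.05. The same test placed 0 of 8 endothelial, 0 of 8 macrophage, 0 of 6 fibroblast and 0 of 4 white adipocyte markers past it, with 1, 0, 1 and 3 at an unadjusted p under 0.05, beside 17.0% of all genes tested. Of these lists, 8 of 8 endothelial markers had a log2 fold change above 0 (median 0.28), while 7 of 8 macrophage (median −0.23) and 6 of 6 fibroblast markers (median −0.32) were below 0. The white adipocyte markers were divided, 2 above and 2 below. Mean log2 CPM of the endothelial markers was 5.30 ± 0.19 (SD, n = 3) in the libraries labelled wild-type and 5.62 ± 0.21 (SD, n = 5) in the others. In the same order it was 2.75 ± 1.14 and 2.75 ± 0.38 for the macrophage markers, and 4.90 ± 0.84 and 4.57 ± 0.48 for the fibroblast markers. Skeletal muscle transcripts were uneven. The summed level of 27 muscle genes was 4351 CPM in A7, 2682 CPM in A8 and 69.0 CPM in A12. It was 56.01, 46.5, 40.1, 67.3 and 475 CPM in A24, A25, A26, A29 and A31. The most abundant of them was *Myh4*, a fast muscle myosin, in A7, A8 and A31, and *Myl1* in the other 5 libraries. *Myh4* itself had no counts in A25, A26 and A29. All 27 had a log2 fold change below 0 (median −4.55), 24 of them with an unadjusted p under 0.05 and 3 past the threshold. Skeletal muscle is known to express genes of branched-chain amino acid breakdown too. The source of the muscle transcripts in A7, A8 and A31 was not tested. In such bulk samples, fewer cells of a type and less RNA per cell cannot be told apart.

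The pathway begins in mitochondria with reversible transfer of the amino group to oxoglutarate, by the mitochondrial transaminase Bcat2. The branched-chain ketoacids then lose carbon dioxide in the branched-chain ketoacid dehydrogenase complex, the committed and regulated step. Its decarboxylase is made of Bckdha and Bckdhb, its acyltransferase core is Dbt, and its lipoamide dehydrogenase, Dld, is shared with the pyruvate and oxoglutarate dehydrogenase complexes. Bckdk phosphorylates the decarboxylase and switches the complex off, and the phosphatase Ppm1k switches it on. Leucine carbon continues through Ivd and the carboxylase made of Mccc1 and Mccc2, and valine carbon through Acad8 and Hibch. Brown fat takes up and oxidises these amino acids during thermogenesis, with mitochondrial import by Slc25a44.

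None of the 10 genes differed between the labelled groups at the threshold, an adjusted p of at most 0.05 with a fold change of at least 1.5, which the study's methods give. By edgeR's quasi-likelihood test, 0 of 10 were past it, beside 105 of 14851 genes tested (0.707%; 69 lower and 36 higher, but 25 lower and 96 higher with library totals only), and the count was also 0 by edgeR's likelihood ratio test, limma voom and DESeq2's Wald test. The number of all genes past the threshold depended on single libraries: it was 13 without A7, 15 without A25, 10 without A26, 14 without A29 and 17 without A31, but 86 without A24, 145 without A8 and 190 without A12, and the count for the 10 genes was 0 in each case. An unadjusted p under 0.05 was found for 1 of 10, against 17.0% of all genes tested. The groups did not overlap for 1 of 10, against 11.5% of all genes tested. It was the same gene, *Mccc2*. The count at an unadjusted p under 0.05 was 5 of 10 with library totals only and 3 without A8. It was 0 without A7, A12 or A24, without A24 and A25, and with the muscle score as a covariate. The 17.0% is from the fit with TMM normalization and all 8 libraries, so the counts under these other settings cannot be set against it. The log2 fold change was above 0 for 7 genes and below 0 for 3, with a median of 0.12 beside a median of 0.00 (quartiles −0.26 and 0.28) over all genes tested. With library totals only in place of TMM normalization, the median of all genes moved to 0.23. All 10 of these genes then lay above 0, and 7 of 10 above the median of all genes. Without A24 alone, 5 lay above 0 and 5 below (median 0.047), and the same counts were found without A24 and A25 together (median 0.0059). The median was 0.20 without A8, 0.081 without A12 and 0.19 without A31.

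**Figure D1:**
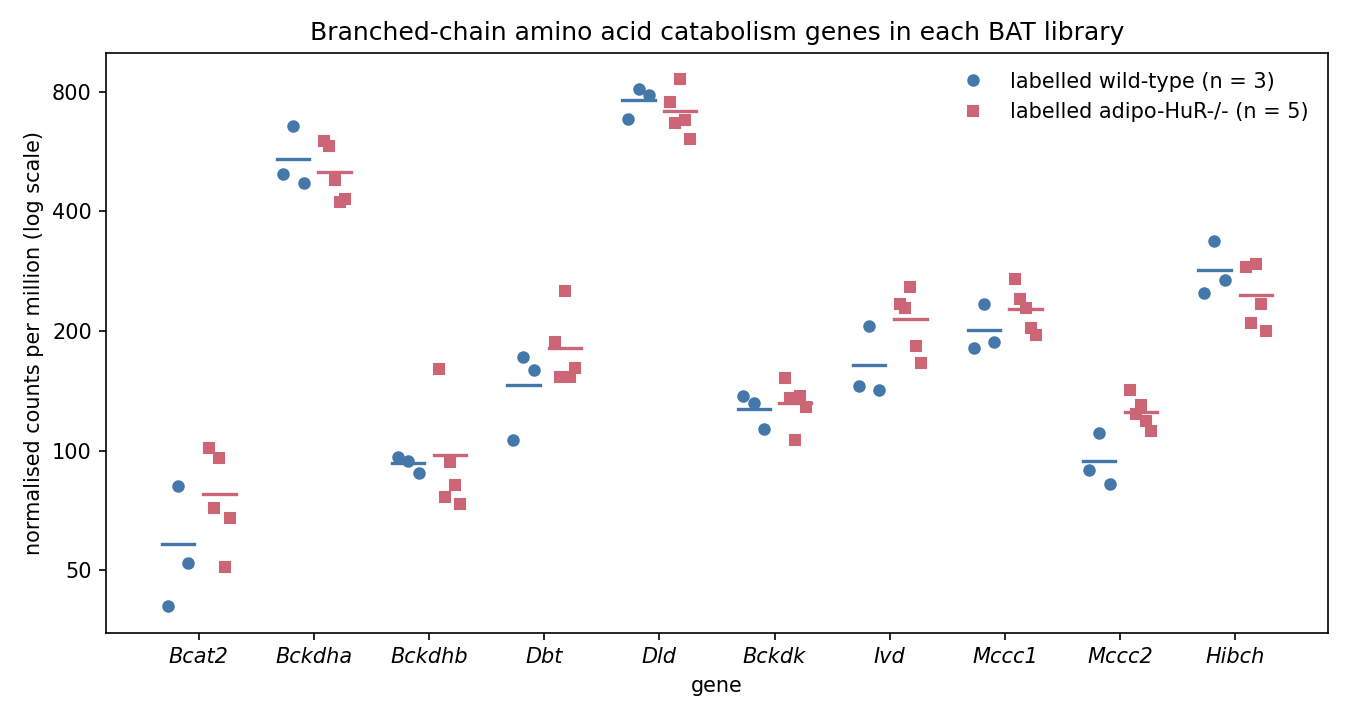
Normalised CPM, on a log axis, of the 10 genes in each BAT library. Circles are the 3 libraries labelled wild-type, squares the 5 labelled Adipo-HuR knockout, and horizontal lines the group means; only the points of *Mccc2* do not overlap between the groups, and the square far above the others at *Bckdhb* is A24 (161 CPM).

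*Bcat2*, on chromosome 7, was the least abundant of the 10 per length on average over the 8 libraries, though it was above *Dbt* in A24. It shares 622 exonic bases with an antisense gene that is not among the genes counted. It was at 40.5, 81.3 and 52.2 CPM in A7, A8 and A12. In A24, A25, A26, A29 and A31 it was at 101, 71.6, 95.9, 50.9 and 67.5 CPM. A24 and A26 were higher than each library labelled wild-type, whereas A29 was lower than A8 and A12. Its log2 fold change of 0.42 (SE 0.276, 95% confidence interval −0.19 to 1.03) did not pass the test (edgeR quasi-likelihood adjusted p = 0.484). It was 0.75 without A8 (adjusted p = 0.165) and 0.21 without A7 (adjusted p = 0.777), so its size rests on single control libraries. It was 0.29 without A24 and 0.13 when only the transcript of highest count was taken (adjusted p = 0.895), which leaves out a second transcript counted in A24 and A25.

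The subunits of the ketoacid dehydrogenase complex showed no common direction. *Bckdha*, the decarboxylase alpha subunit, was at 497, 656 and 470 CPM in A7, A8 and A12, and at 601, 585, 479, 422 and 429 CPM in A24, A25, A26, A29 and A31. Its groups overlapped, with A29 and A31 the lowest and A8 the highest (log2 fold change −0.10, SE 0.194, edgeR quasi-likelihood adjusted p = 0.831). The sign of this difference turned without A8 (0.06), without A7, A8 and A31 together (0.15) and with library totals only (0.15). Without A24 and A25 it was −0.29. *Bckdha* shares 1171 exonic bases with *B3gnt8* on the opposite strand, and *B3gnt8* received 34.4 to 168 estimated counts per library. Whether the counting used strand is not given in the sources used here, so these counts cannot show how shared reads were divided.

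*Bckdhb*, the beta subunit, was at 96.6, 94.2 and 87.5 CPM in A7, A8 and A12. It was at 161 CPM in A24 and at 76.4, 93.6, 82.0 and 73.3 CPM in A25, A26, A29 and A31. A24 stood alone above the rest, and 3 of the other 4 libraries with its label were lower than each library labelled wild-type. The log2 fold change was 0.07 (SE 0.253, edgeR quasi-likelihood adjusted p = 0.920) with A24 and −0.20 without it (adjusted p = 0.503).

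*Dbt*, the acyltransferase core, was at 107, 172 and 160 CPM in A7, A8 and A12. It was at 187, 153, 252, 153 and 162 CPM in A24, A25, A26, A29 and A31. A7 was the lowest and A26 the highest, and the other 6 libraries were between 153 and 187 CPM. A log2 fold change of 0.31 (SE 0.225, edgeR quasi-likelihood adjusted p = 0.524) was 0.13 without A7 and 0.17 without A26. *Dld* was at 683, 814 and 786 CPM in A7, A8 and A12, and at 754, 668, 860, 679 and 610 CPM in A24, A25, A26, A29 and A31. Its log2 fold change was −0.09 (95% confidence interval −0.47 to 0.29), so a fold change of 1.5 in either direction lay outside the interval.

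The kinase and phosphatase of the complex were also compared. *Bckdk* varied little, at 137, 131 and 113 CPM in A7, A8 and A12, and at 152, 136, 106, 137 and 129 CPM in A24, A25, A26, A29 and A31 (log2 fold change 0.05, SE 0.157, edgeR quasi-likelihood adjusted p = 0.899). *Ppm1k* was at 7.71, 13.3 and 13.1 CPM in A7, A8 and A12. In A24, A25, A26, A29 and A31 it was at 10.9, 8.11, 25.3, 12.2 and 12.5 CPM. Only A26 lay clearly apart (log2 fold change 0.29, SE 0.345, edgeR quasi-likelihood adjusted p = 0.726), and the log2 fold change was −0.05 without it and 0.07 without A7. The ratio of kinase to phosphatase CPM was 17.8, 9.85 and 8.64 in A7, A8 and A12, and 13.9, 16.7, 4.19, 11.3 and 10.3 in A24, A25, A26, A29 and A31. A26 had the lowest ratio and A7 the highest. The mean log2 ratio was 3.52 ± 0.55 (SD, n = 3) in the libraries labelled wild-type and 3.36 ± 0.77 (SD, n = 5) with the *Adipo-HuR-/-* label, a difference of −0.16 (two-sided exact permutation p = 0.893, where 0.0357 is the smallest p that 3 against 5 libraries allow). This difference turned to 0.15 without A7 and to 0.16 without A26. Without A24 and A25 it was −0.54.

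The genes of the leucine branch, *Ivd*, *Mccc1* and *Mccc2*, each had a log2 fold change above 0. *Ivd*, isovaleryl-CoA dehydrogenase, was at 145, 206 and 142 CPM in A7, A8 and A12. It was at 234, 229, 258, 183 and 166 CPM in A24, A25, A26, A29 and A31. Only A8 among the libraries labelled wild-type reached the range of the others (log2 fold change 0.38, SE 0.203, 95% confidence interval −0.07 to 0.83, edgeR quasi-likelihood adjusted p = 0.373), and without A8 the log2 fold change was 0.58.

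*Mccc2*, the beta subunit of methylcrotonyl-CoA carboxylase, was at 89.1, 111 and 82.4 CPM in A7, A8 and A12. It was at 142, 124, 131, 119 and 112 CPM in A24, A25, A26, A29 and A31. Each library labelled *Adipo-HuR-/-* was higher than each labelled wild-type, but the gap between A31 (111.8 CPM) and A8 (110.6 CPM) was narrow. The mean was 125 ± 11.4 CPM (SD, n = 5) against 94.0 ± 14.8 CPM (SD, n = 3), a difference of 31.2 CPM (two-sided exact permutation p = 0.0357, the smallest these 8 libraries can give and the value any gene without overlap receives). By the same permutation test the other 9 genes had p from 0.143 to 0.821, with no adjustment over the 10. The log2 fold change was 0.41 (SE 0.155, 95% confidence interval 0.07 to 0.76). With an unadjusted p of 0.0230 by edgeR's quasi-likelihood test and an adjusted p of 0.210 it did not pass the threshold, and the adjusted p lay between 0.0726 (library totals only) and 0.509 (without A12) over the alternatives. The log2 fold change was 0.46 with the muscle score as a covariate (edgeR quasi-likelihood adjusted p = 0.457). It was 0.64 without A7, A8 and A31, the libraries with the highest summed level of muscle genes. That setting leaves A12 as the only control library, the lowest of the 8 for this gene.

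*Mccc1*, the biotin-carrying alpha subunit of the same carboxylase, was at 181, 233 and 187 CPM in A7, A8 and A12. It was at 270, 241, 229, 203 and 196 CPM in A24, A25, A26, A29 and A31. The groups overlapped through A8 (log2 fold change 0.18, SE 0.168, edgeR quasi-likelihood adjusted p = 0.629). It was 0.11 without A7 or without A24, 0.31 without A8 and 0.05 without A24 and A25. Whether the subunits differ from each other in their response was not tested.

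In the valine branch, *Hibch*, which frees hydroxyisobutyrate from its CoA ester, was at 250, 336 and 268 CPM in A7, A8 and A12. It was at 291, 209, 295, 234 and 200 CPM in A24, A25, A26, A29 and A31. A24 and A26 lay among the libraries labelled wild-type, and A25, A29 and A31 were under them (log2 fold change −0.21, SE 0.189, edgeR quasi-likelihood adjusted p = 0.620). This was −0.07 without A8, −0.06 without A7, A8 and A31, and 0.03 with library totals only. *Acad8*, isobutyryl-CoA dehydrogenase of the same branch, was at 64.2, 81.6 and 59.6 CPM in A7, A8 and A12, and at 53.0, 48.0, 54.2, 45.2 and 43.2 CPM in A24, A25, A26, A29 and A31. Here each library labelled *Adipo-HuR-/-* was lower than each labelled wild-type, but the log2 fold change of −0.49 (SE 0.152, 95% confidence interval −0.83 to −0.15) did not pass the test (edgeR quasi-likelihood adjusted p = 0.137), and it was −0.25 without A7, A8 and A31.

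The mean level of the 10 genes varied between libraries more than between groups. Their mean log2 CPM was 7.33, 7.71 and 7.39 in A7, A8 and A12, and 7.89, 7.58, 7.76, 7.45 and 7.41 in A24, A25, A26, A29 and A31. The group means were 7.48 ± 0.21 (SD, n = 3) and 7.61 ± 0.20 (SD, n = 5), so the difference of 0.14 was smaller than the spread within either group. Without A7 it was 0.06, without A24 0.07 and without A8 0.25. A24 was the highest of the 8 libraries for 5 genes and among the highest pair for 8. A7 and A31 were each the lowest for 3 genes.

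Levels per transcript length gave an order among the genes. Scaled to transcript length and library total (TPM) and averaged over the 8 libraries, *Dld* was at 424 ± 85.1 (SD) and *Bckdha* at 377 ± 77.8, and these neighbours changed places in 3 of the 8 libraries. *Hibch* followed at 202 ± 29.2 TPM. The step from *Bckdha* to *Hibch* was the only one between neighbours with no overlap of their ranges. *Mccc1* was at 139 ± 29.7 TPM, below *Hibch* in 8 of 8 libraries. *Bckdhb* (106 TPM), *Ivd* (96.5 TPM) and *Bckdk* (95.2 TPM) came next and did not differ beyond their spread. *Mccc2* (74.6 TPM), *Dbt* (71.5 TPM) and *Bcat2* (56.3 TPM) were lowest. Within the complex, the shared subunit *Dld* and the alpha subunit *Bckdha* thus had higher levels per length than the beta subunit *Bckdhb* and the core *Dbt*.

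Within *Mccc1* the groups separated in the share of 1 transcript, which was noticed after its values were seen. The annotation GENCODE M21 gives *Mccc1* (ENSMUSG00000027709.9) on the minus strand of chr3:35959312-36000678 in build GRCm38. Its only coding transcript among those counted, ENSMUST00000029259.9, took 88.0% of the gene's estimated counts on average. The next, ENSMUST00000199113.4, is annotated as a target of nonsense-mediated decay, the removal of mRNAs with an early stop codon. It has the same 19 exons, but the first exon starts 69 bases later, exon 7 runs 11 bases further at its 3′ end, exon 16 starts 16 bases earlier, and the last exon runs 521 bases further downstream.

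This transcript took 10.1%, 11.6% and 10.5% of *Mccc1* estimated counts in A7, A8 and A12. It took 5.36%, 5.11%, 3.57%, 3.78% and 4.99% in A24, A25, A26, A29 and A31. Every library labelled *Adipo-HuR-/-* had a lower share than every library labelled wild-type, with means of 4.56 ± 0.82% (SD, n = 5) and 10.7 ± 0.75% (SD, n = 3). The estimated counts behind these shares were 1132, 1065 and 940 in A7, A8 and A12, and 256, 259, 551, 405 and 645 in A24, A25, A26, A29 and A31. In CPM the transcript was at 18.3, 27.0 and 19.6 in the libraries labelled wild-type, and between 7.67 and 14.4 in the others. The difference of −6.16 percentage points ranged from −5.74 to −6.46 when single libraries were omitted, and was −6.61 without A24 and A25 and −6.03 without A7, A8 and A31.

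As it was chosen for its values, no test was made of this share. Of 23 transcripts of the 10 genes with a mean share of 1% to 99%, this was the only one whose groups did not overlap (1 of 23), beside 4.86% of 40550 such transcripts over all genes tested, so that such transcripts were about as frequent here as elsewhere. These shares were estimated when reads common to several transcripts were divided. The longer last exon and the shifted exon ends belong to the same transcript in the annotation, so use of the altered splice sites and use of the downstream end cannot be told apart in these values. *Mccc1* also shares exonic bases with antisense genes and with a pseudogene that had at most 0.536 estimated counts, and whether the counting used strand is not given in the sources used here.

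**Figure D2:**
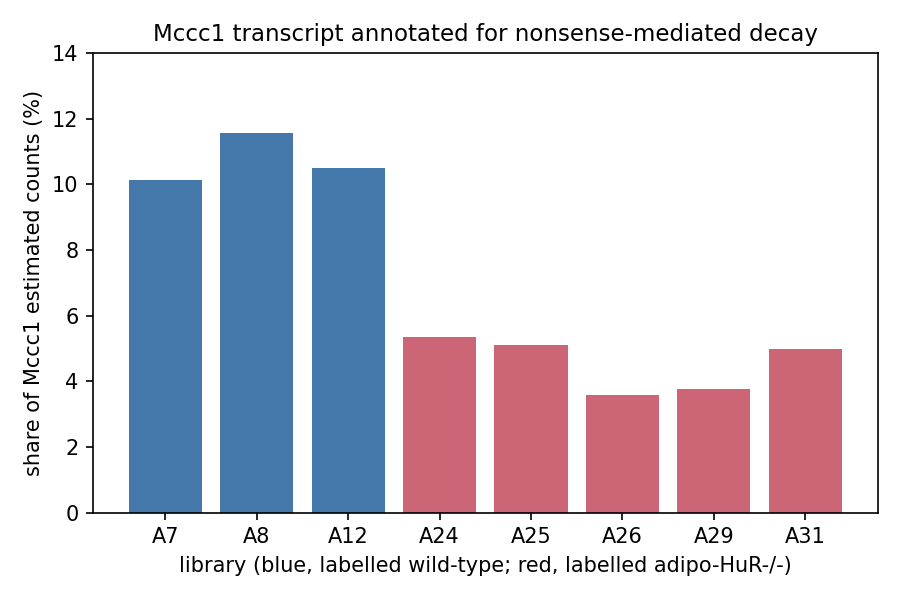
Share of the *Mccc1* estimated counts, in percent, given to the transcript annotated for nonsense-mediated decay, with 1 bar for each library. The 3 libraries labelled wild-type (blue) lie between 10.1% and 11.6%, and the 5 labelled Adipo-HuR knockout (red) between 3.57% and 5.36%.

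Of 28 transcripts with a mean share above 0 and under 1%, 2 had shares that did not overlap between the groups, beside 2.35% of 22240 such transcripts over all genes tested. *Hibch* transcript ENSMUST00000159431.1, annotated as noncoding, took 2.82%, 0.513% and 3.33% in A7, A8 and A12 and at most 0.231% in the others. *Dbt* transcript ENSMUST00000199614.1, annotated for nonsense-mediated decay, took at most 0.0469% in the libraries labelled wild-type and between 0.0746% and 0.223% in the others, from only 0 to 28.7 estimated counts per library (3.37 in A24). Some larger shares were high in single libraries. For *Bcat2*, the coding transcript ENSMUST00000120864.9, 1536 bases long beside 1772 for the main form, took 36.2% of counts in A24 and 32.4% in A25. It took at most 0.476% in each of the other 6 libraries. A24 and A25 are the shallowest libraries, and what else sets them apart was not tested. For *Bckdhb*, the coding transcript ENSMUST00000190637.6 took 57.2% in A25 and between 0.269% and 28.4% elsewhere. *Bckdk* was divided between 2 coding transcripts in stable shares, ENSMUST00000124533.2 (50.5% to 62.6%) and ENSMUST00000071056.13 (32.3% to 37.1%). *Bckdha*, *Dbt* and *Mccc2* were counted almost wholly on 1 coding transcript each.

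Of 45 other genes of the pathway and of its sister complexes, 1 was past the threshold, beside 0.707% of all genes tested, and 4 had an unadjusted p under 0.05, beside 17.0%. It was *Dlst*, the acyltransferase of the oxoglutarate dehydrogenase complex, the counterpart of *Dbt* that works with the same *Dld*. *Dlst*, at chr12:85110833-85134845, was at 1066, 1099 and 944 CPM in A7, A8 and A12. It was at 457, 514, 608, 457 and 480 CPM in A24, A25, A26, A29 and A31. All libraries labelled *Adipo-HuR-/-* were lower than all those labelled wild-type. Whether the muscle transcripts of A7, A8 and A31 play a part was not tested. The log2 fold change was −1.04 (SE 0.163, 95% confidence interval −1.40 to −0.68, edgeR quasi-likelihood adjusted p = 0.0289). The adjusted p rose above 0.05 without A7 (0.106), A25 (0.0931), A26 (0.0609), A29 (0.0866) or A31 (0.0733). It did so too with the muscle score as a covariate (0.211), with library totals only (0.0634), with the transcript of highest count (0.0589), without A24 and A25 (0.147) and without A7, A8 and A31 (0.298), while the log2 fold change stayed between −1.12 and −0.81 over all alternatives.

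In the same list of 14 pyruvate, oxoglutarate and related complex genes, 2 more had groups that did not overlap (3 of 14 with *Dlst*, beside 11.5% of all genes tested), with lower values in the libraries labelled *Adipo-HuR-/-*. *Pdk1*, a kinase that switches off pyruvate dehydrogenase, had a log2 fold change of −0.65 (SE 0.193, edgeR quasi-likelihood adjusted p = 0.125) and passed the threshold only by DESeq2's Wald test (adjusted p = 0.0346). It was −0.36 without A7, A8 and A31 (adjusted p = 0.550) and −0.42 with library totals only (adjusted p = 0.305). *Dlat*, the pyruvate complex acyltransferase, named after its values were seen, had a log2 fold change of −0.59 (SE 0.199, edgeR quasi-likelihood adjusted p = 0.168). *Pdk3* and *Pdp2* had the highest log2 fold changes of that list, 0.35 and 0.25, with groups that overlapped. *Pdk3* was at 0.20 without A8 and 0.65 without A12, and *Pdp2* at 0.04 without A7, 0.44 without A12 and 0.16 without A26. The list's median was −0.16.

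**Figure D3:**
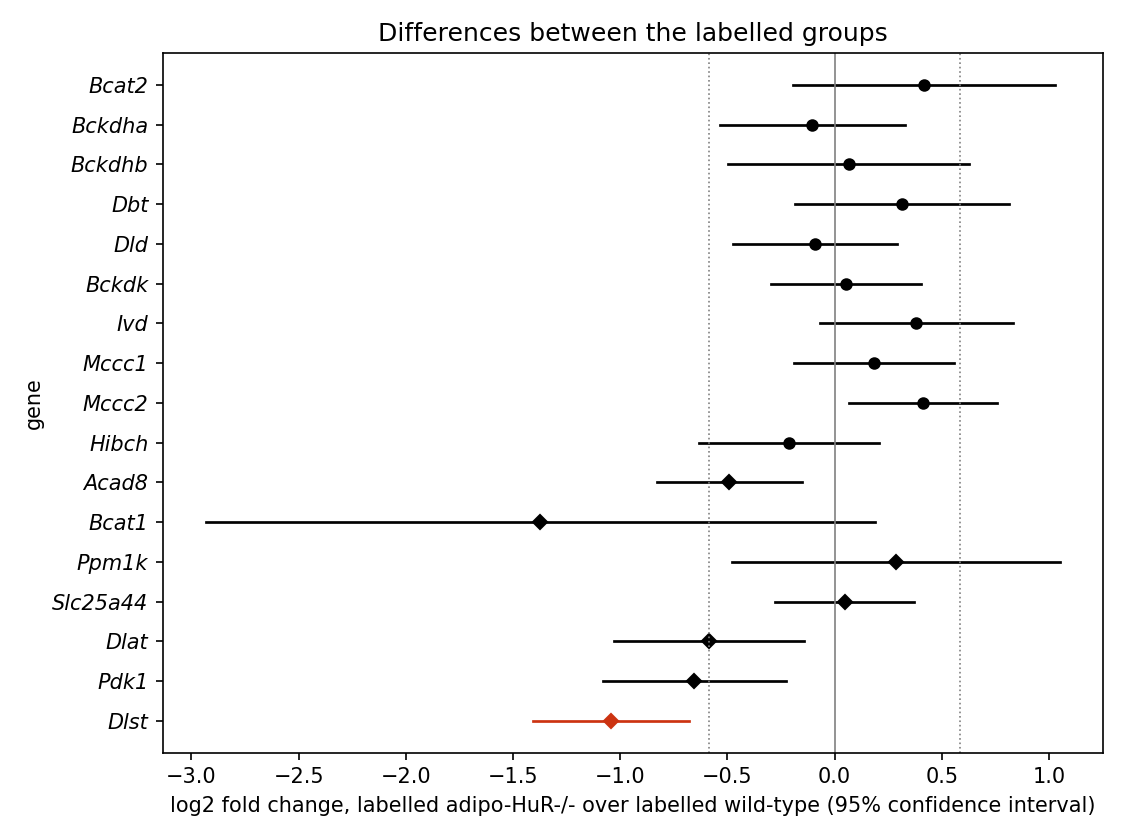
Log2 fold change of the libraries labelled Adipo-HuR knockout (n = 5) over those labelled wild-type (n = 3), with 95% confidence intervals from edgeR's quasi-likelihood fit, for the 10 genes (circles) and 7 further pathway genes (diamonds); dotted lines mark a fold change of 1.5. *Dlst* (red, −1.04) is the only one past the threshold, and the intervals of 9 of the 10 circles cross 0.

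Among 14 further enzymes of branched-chain amino acid breakdown, 0 were past the threshold by edgeR's quasi-likelihood test and 1, *Acad8*, had an unadjusted p under 0.05, beside 17.0% of all genes tested. Their median log2 fold change was −0.11. The lowest was *Bcat1*, the cytosolic transaminase, which was nearly absent: it was at 4.23, 0.127 and 1.40 CPM in A7, A8 and A12 and between 0.587 and 0.863 CPM in the others (log2 fold change −1.37, edgeR quasi-likelihood adjusted p = 0.357). The difference depended on which control libraries were kept. It was −0.05 without A7, −1.91 without A8 and −0.97 without A7, A8 and A31. The highest were *Echs1* (0.22), the enoyl-CoA hydratase, and *Hsd17b10* (0.13), an isoleucine branch dehydrogenase, both with overlapping groups. *Echs1* was at 0.09 without A7, 0.41 without A8 and 0.08 without A24, and *Hsd17b10* at −0.07, 0.50 and −0.01 without the same libraries and at 0.01 without A12.

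Of 9 genes for the cofactors biotin, lipoate and cobalamin, 0 were past the threshold by edgeR's quasi-likelihood test and 0 had an unadjusted p under 0.05, beside the same 17.0%. Their log2 fold changes ran from −0.38 for *Lipt2* and −0.35 for *Mmab* to 0.17 for *Mmadhc* and 0.23 for *Lipt1*. Without A8 *Lipt2* was at 0.02 and *Lipt1* at 0.40, *Lipt1* was at 0.16 without A12, and *Mmadhc* was at 0.11 without A7 and 0.05 without A24. Among 6 transporters these counts were also 0 and 0. *Slc25a44*, the mitochondrial carrier, was at 144, 156 and 123 CPM in A7, A8 and A12 and at 128, 158, 149, 151 and 143 CPM in A24, A25, A26, A29 and A31 (log2 fold change 0.05, 95% confidence interval −0.28 to 0.37). The plasma membrane carriers *Slc7a5* (0.74) and *Slc7a8* (0.60) had the highest log2 fold changes of this list, at under 1 CPM and under 5 CPM in each library, and *Slc43a2* (−0.33) the lowest. These values rest on single libraries: *Slc7a5* was at 1.19 without A7, *Slc7a8* at 0.31 without A8 and 0.30 without A26, and *Slc43a2* at −0.12 without A12 and −0.20 without A25, but −0.83 with the transcript of highest count. *Klf15*, a transcription factor known to raise *Bcat2* in muscle, had a log2 fold change of −0.14 (edgeR quasi-likelihood adjusted p = 0.864). Its direction was not stable, at 0.15 without A12 and 0.13 with library totals only. It was −0.49 without A7 and −0.60 with the muscle score as a covariate. By contrast *Gpt2*, the mitochondrial alanine transaminase, which uses the glutamate that Bcat2 forms, fell by 3.51 on the log2 scale (SE 0.208, edgeR quasi-likelihood adjusted p = 0.000111).

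As HuR attaches to AU-rich sequence, ATTTA was counted in the 3′ untranslated region of the most counted coding transcript of each gene, on the transcript strand in GENCODE M21. It was found in 4 of 10 genes, *Dbt* (4 matches), *Dld* (4), *Mccc1* (1) and *Mccc2* (1), beside 65.9% of 14066 genes tested with such a region. The regions of the 10 genes were short, with a median of 446 bases beside 992 bases, and per kilobase they held 1.32 matches beside 1.82. A run of TTTTT was found in 7 of 10 genes, beside 74.1%, with 7.12 matches per kilobase beside 5.93. Neither motif divides the genes by direction. Of those with ATTTA, *Dbt*, *Mccc1* and *Mccc2* had log2 fold changes above 0 and *Dld* below 0. Of those with TTTTT, *Bckdhb*, *Dbt*, *Bckdk*, *Ivd* and *Mccc2* were above 0 and *Dld* and *Hibch* below 0. A match of these letters is a description and not a binding site. The 30 bases with the most matches are shown for each of the 4 genes, 5′ to 3′, with ATTTA in capitals; of the stretches shown only that of *Dld* has overlapping copies.
Dbt: gggcataaaattaATTTAtacagaaatgct
Dld: gattttctctcATTTATTTAacttccaaat
Mccc1: atggtgtgattatATTTAaacccttttata
Mccc2: cttgaaacttgagATTTActggacatgtag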

How the data were processed

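As deposited by the authors, each BAT library has 1 estimated count per transcript, not normalized, on GRCm38; their methods name CLC Genomics Workbench for mapping, and the program that wrote these values is not given in the sources used here. Of 105129 transcript identifiers, 103635 are in GENCODE M21 without their version and 99505 with it. Values were summed by gene symbol, rounded, filtered by filterByExpr, normalized by TMM and tested between labels with edgeR 4.0.16 (glmQLFTest), adjusted by Benjamini-Hochberg over 14851 genes. R 4.3.3, limma 3.58.1, DESeq2 1.42.0 and Python 3.11.15 were used, and the fits were tested on simulated data. Scores are mean log2 CPM with a prior count of 2. TPM used M21 transcript lengths. Intervals and floors cover counting error or spread between these libraries only.

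The 10 genes and the lists were chosen with earlier results of these data known. Named in addition were pathway genes past the threshold, the 2 largest rises and falls of each of 5 lists, and *Bcat1*, *Ppm1k*, *Slc25a44*, *Acad8*, *Gpt2* and *Elavl1*; other names were chosen after their values were seen. Alternatives for genes outside the 10 and for transcript shares were added after seeing the data. Protein and physiology were not analysed here.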

Additional observations from a re-analysis of the deposited data

Results flagged for a closer look

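In the 5 libraries labelled *Adipo-HuR-/-*, 32 quantities were examined for a single library far from the rest, by Dixon's ratio of the gap to the range; chance alone singles out about 1 in 20. There were 4 such values. *Bckdhb* was at 161 CPM in A24, beside 93.6 CPM in the next library (ratio 0.769). *Mmadhc*, a cobalamin trafficking gene, was at 97.2 CPM in A24, beside 70.2 CPM in the next (ratio 0.892). *Lipt1*, a lipoyltransferase, was at 17.7 CPM in A25, under the 24.2 CPM of the next (ratio 0.745). *Ppm1k* was at 25.3 CPM in A26, beside 12.5 CPM in the next (ratio 0.748). A24 and A25 are the libraries with the fewest counts and A26 the one with the most. Whether depth plays a part in these values was not tested.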

How the results depend on the processing

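The number of the 10 genes past the threshold was 0 under each alternative run, and their lowest adjusted p was 0.0726, with library totals only. That setting also moved the median log2 fold change of the 10 genes from 0.12 to 0.36 and the difference in mean log2 CPM from 0.14 to 0.37, beside a move of the median of all genes from 0.00 to 0.23, and turned *Bckdha* (0.15), *Dld* (0.14), *Hibch* (0.026) and *Klf15* (0.13) above 0. When single libraries were omitted, the median ranged from 0.047 to 0.20 and the difference in mean log2 CPM from 0.061 to 0.25.

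The number of other pathway genes past the threshold, 1 (*Dlst*), was 2 by DESeq2's Wald test, which added *Pdk1*. It was 0 with library totals only, with the muscle score as a covariate, with the transcript of highest count, without A24 and A25, and without A7, A8 and A31, where 1 control library was left and was assumed to vary like the others. When single libraries were omitted it ranged from 0 to 1. The cause was not tested. Over all genes the count was 818 by DESeq2's Wald test, 655 by the likelihood ratio test, 157 by limma voom, 15 with the muscle covariate, 16 with the transcript of highest count, 5 without A24 and A25, and 4 without A7, A8 and A31, against 105. With library totals only, 25 of 121 were lower, against 69 of 105.

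Differences near 0 changed sign. *Bckdhb* was at −0.11 by limma voom, −0.027 with the muscle covariate, −0.29 with the transcript of highest count and −0.17 without A24 and A25. *Bckdk* was at −0.043 without A24 and A25, and *Bckdha* at 0.15 without A7, A8 and A31. When single libraries were omitted, *Bckdhb* ranged from −0.20 (A24) to 0.15, *Bckdk* from −0.025 (A12; −0.011 for A24) to 0.12, *Bckdha* from −0.20 to 0.063 (A8), and the log2 ratio of *Bckdk* to *Ppm1k* from −0.37 to 0.16 (A26; 0.15 for A7). Of the other genes, *Pdk3* was at −0.0041 with the muscle covariate and −0.039 without A7, A8 and A31, which also turned *Lipt2* (0.060), *Mmab* (0.049) and *Pdp2* (−0.13), and *Echs1* was at −0.012 without A24 and A25. Single omissions took *Hsd17b10* from −0.065 (A7; −0.0051 for A24) to 0.50, *Lipt2* from −0.57 to 0.024 (A8), *Klf15* from −0.49 to 0.15 (A12), *Slc25a44* from −0.041 (A12) to 0.13 and *Ppm1k* from −0.054 (A26) to 0.42. The cause was not tested. No paired analysis was possible because the labels give no litter or other link between animals of the groups.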
